A study of Caenorhabditis elegans with 33 samples.

Results

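The genes described here are 10 genes of synaptic vesicle release and acetylcholine signalling in Caenorhabditis elegans, taken by their WormBase symbols from a deposited table of 21975 genes. Of these, 2 are X-linked, unc-18 and unc-10, and 8 are autosomal, unc-13, unc-64, ric-4, snb-1, snt-1, unc-11, cha-1 and unc-17. The rule uses no measured value, though the list was drawn up with earlier results of these data known, and the X-linked members are set against the autosomal ones in every comparison.

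The messenger RNA of whole L3 larvae was measured in 33 libraries, 3 replicates for each of 11 conditions in 7 strains. The study asked how the X chromosomes of hermaphrodites stay repressed when DPY-27, DPY-21 or CEC-4 is removed. DPY-27 is a subunit of condensin IDC, which together with other proteins, among them the histone demethylase DPY-21, makes up the dosage compensation complex, and CEC-4 is an anchor at the nuclear lamina. Synchronized L1 larvae were grown for 24 h with or without auxin (4 mM). Auxin was given to TIR-1; dpy-27::AID; cec-4, TIR-1; dpy-27::AID, dpy-27::AID and cec-4. The same 4 strains were also grown without auxin, as were dpy-21; cec-4, dpy-21 and WT (the N2 strain). In the labels, AID is a degron fused to DPY-27 and TIR-1 is the plant F-box protein TIR1, which targets the degron for degradation when auxin is present. The study also saw somewhat weaker DPY-27 staining in intestinal nuclei of untreated TIR-1 strains than in WT. It reported a small rise of X-linked genes in these strains without auxin, and proposes leaky TIR1 activity as a possible reason. Untreated TIR-1 libraries are therefore not taken as free of depletion. TIR1 was expressed from the ubiquitous eft-3 promoter, so depletion was not limited to any tissue, and neurons were not separated from other cells. In the strains named dpy-21 or cec-4 the gene was mutated throughout life. Every TIR-1 strain carries dpy-27::AID and was made by crossing, so TIR-1 and anything else brought in by the crosses cannot be told apart. Nothing in the labels says that the replicates came from separate cultures, so the p-values measure the spread between these samples, which may be technical.

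At a synapse, vesicles filled with transmitter fuse with the plasma membrane when the vesicle protein synaptobrevin zips together with syntaxin and SNAP-25 on the target membrane. Munc18 binds syntaxin and Munc13 opens it, RIM organizes the active zone, synaptotagmin senses calcium, and AP180 helps to retrieve vesicle membrane. In cholinergic neurons, choline acetyltransferase makes acetylcholine and the vesicular acetylcholine transporter loads it into vesicles. Most of these genes were found in worms through mutants that move poorly, hence the names unc for uncoordinated, or that resist inhibitors of cholinesterase, hence ric.

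The values are FPKM (fragments scaled to transcript length and library size), and a fold change is a difference of condition means of log2(FPKM + 0.1). The added 0.1 shrinks changes between low values, but a single 0 can enlarge or reverse the change of a low gene. Unc-10 in TIR-1; dpy-27::AID averaged 1.68 FPKM with auxin and 1.51 FPKM without, yet its log2 fold change was -0.87. An FPKM of 0 may be a failed estimate, because 188 of the 5592 genes whose median FPKM reached 20 had a 0 in some library, so such genes are given by their values in single libraries. Depth was not given by the table. From the smallest steps between low values and the annotated lengths it was estimated at 11400000 to 21700000 fragments per library, which puts about 1725 to 9355 fragments on unc-18 and 0 to 1373 on unc-10. Replicates correlated at 0.762 to 0.898 (Pearson r of log2 values), and no pair of libraries was identical. In WT, replicates 1 and 2 had FPKM sums of 2555000 and 2022000, above the other libraries. A transcript of dpy-27 was measured at similar levels with and without auxin in the TIR-1 strains, which checks nothing, because the degron acts on the protein. The cec-4 transcript was listed at 0 in 11 of 15 libraries with cec-4 in the label, against 2 of 18 libraries without it. The exceptions included replicates 1 and 2 of untreated TIR-1; dpy-27::AID; cec-4, at 3.46 and 8.99 FPKM, where replicate 3 was listed at 0, and the median of the libraries without cec-4 in the label was 8.10 FPKM.

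A pair of libraries stood apart from their replicates. In untreated TIR-1; dpy-27::AID; cec-4, replicate 3 went against its label by the clustered genes F30A10.11 (chromosome I, 9477459 to 9478151, WBcel235) and F30A10.14 (chromosome I, 9476597 to 9477181), which were picked after their values were seen. F30A10.11 lay at 20.1 to 95.2 FPKM in the other 11 TIR-1 libraries, against at most 0.988 FPKM in the 21 libraries with no TIR-1 in the label. F30A10.14 lay at 14.6 to 57.9 FPKM in those 11 libraries and was listed at 0 in those 21. In replicate 3 these genes had 2.87 and 1.80 FPKM, which is 9.61% and 7.48% of the mean of replicates 1 and 2. In auxin-treated dpy-27::AID, replicate 3 had an X:A score of 0.427, against -0.342 and -0.372 in its replicates. The X:A score is the median of the X-linked genes minus that of the autosomal genes, both taken over the deviations of log2 values from each gene's average, with the members left out. The library that went against its label had a score of -0.356, beside -0.117 and -0.155 in its replicates. Results that rest on these libraries are given for all 33 libraries and for the 31 without them. Both libraries also lay apart from their replicates in unc-18, and this was known when they were left out, so for unc-18 the 31 libraries give a value and no test. The values in the 31 libraries for untreated TIR-1; dpy-27::AID; cec-4 rest on replicates 1 and 2, which are those with the cec-4 transcript above 0. The WT libraries were uneven too, and all were kept in the 31. Replicates 1 and 2 of WT had X:A scores of -0.472 and -0.452, beside -0.284 in replicate 3. They had 10963 and 11711 genes at 1 FPKM or more, beside 12409, so comparisons with WT carry this unevenness.

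Among the members, snb-1 had the highest level per length and snt-1 the lowest. Snb-1, which encodes synaptobrevin (chromosome V, 6655562 to 6656501), averaged 416.7 FPKM and stood at percentile 96.3 of the tested genes. Unc-18, the Munc18 gene (WBGene00006757, X, 7682896 to 7686037), averaged 105.6 FPKM and ric-4, the SNAP-25 gene (V, 10261131 to 10270314), 53.9 FPKM. Unc-64, which encodes syntaxin (III, 13277258 to 13283887), averaged 26.7 FPKM, above the acetylcholine genes unc-17 (IV, 3618259 to 3624699) at 17.3 FPKM and cha-1 (IV, 3613931 to 3624697) at 13.9 FPKM. The other members were near the lower limit of the table. Unc-10, the RIM gene (WBGene00006750, X, 7272317 to 7280322), was listed at 0 in 4 libraries, unc-13, the Munc13 gene (I, 7422785 to 7454116), in 7, unc-11, the AP180 gene (I, 3798396 to 3805739), in 17, and snt-1, the synaptotagmin gene (II, 6810963 to 6816433), in 23. Genes were tested where their FPKM averaged 1 or more, which held for 9 of the 10 members and not for snt-1. The coordinates are those of WBcel235 genes.

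Unc-18 varied most between conditions among the 6 members with a value in every library. Its highest condition mean was 3.37 times its lowest, against 1.31 times for snb-1, 1.41 for unc-64, 1.59 for unc-17, 1.63 for ric-4 and 1.81 for cha-1. The median coefficient of variation within conditions was 10.8% for unc-18, against 7.58% for snb-1 and 13.9% to 22.7% for the other 4.

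**Figure D1:**
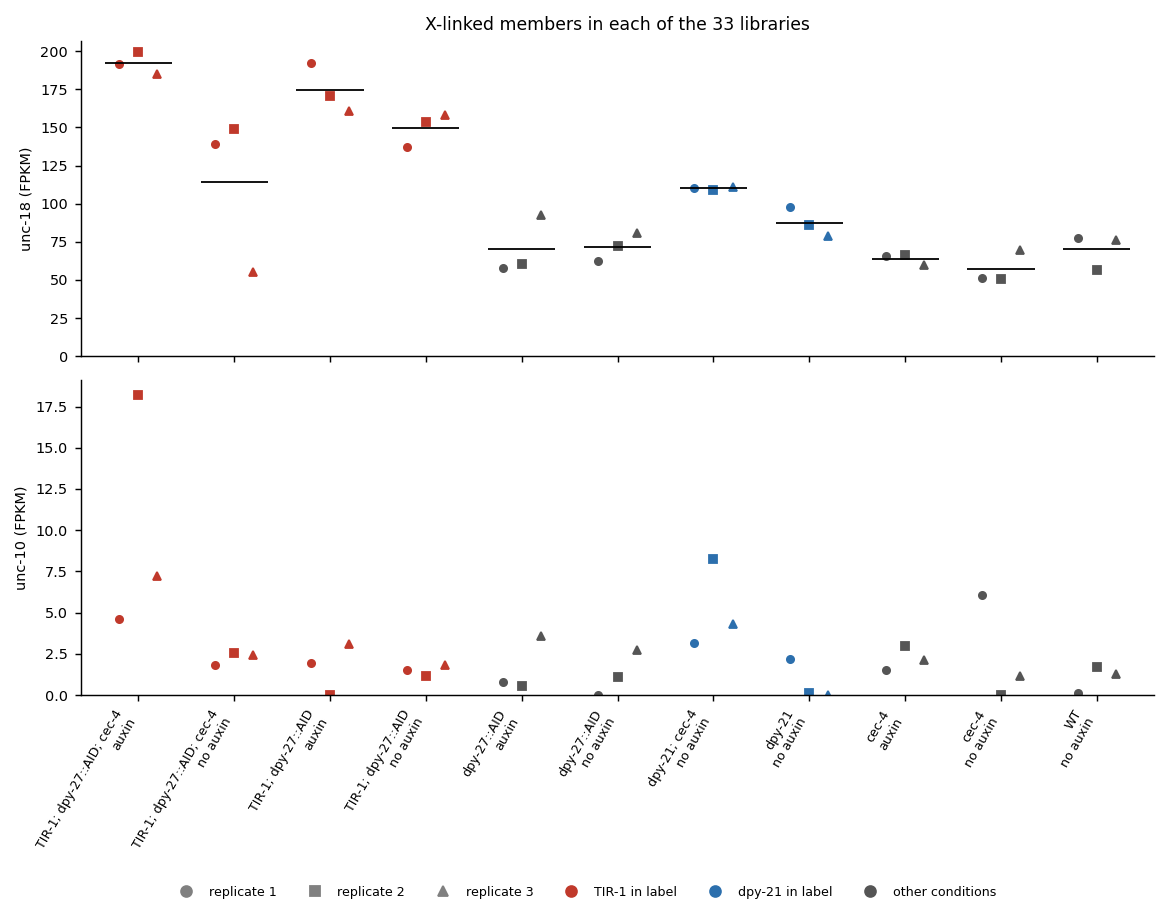
FPKM of unc-18 (upper panel) and unc-10 (lower panel) in each of the 33 libraries, by condition; marker shapes stand for replicates, colours for TIR-1, dpy-21 or neither in the label, and black lines for unc-18 means of 3 libraries. The TIR-1 libraries of unc-18 lie above all libraries without TIR-1 except for replicate 3 of untreated TIR-1; dpy-27::AID; cec-4 at 55.0 FPKM.

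Unc-18 was high wherever TIR-1 was in the label, with or without auxin, in all but the library that went against its label. In TIR-1; dpy-27::AID; cec-4, its level was 191.9, 199.4 and 185.3 FPKM with auxin, and 138.9, 149.0 and 54.97 FPKM without. In TIR-1; dpy-27::AID, it was 192.4, 170.4 and 160.6 FPKM with auxin, and 137.5, 153.8 and 158.4 FPKM without. The dpy-27::AID strain, which has the degron but no TIR-1, had 58.12, 60.5 and 92.36 FPKM with auxin, and 62.45, 72.43 and 80.66 FPKM without. Taken over libraries, the other 11 with TIR-1 ranged from 137.5 to 199.4 FPKM (median 160.6), and the 21 without it from 50.57 to 110.9 FPKM (median 72.4). These ranges did not overlap, but the TIR-1 library left out of the 11 was at 54.97 FPKM, among the libraries without TIR-1. It was set apart by F30A10.11 and F30A10.14, which were picked with the unc-18 values known, so the gap is no test. The share of genes that separate in this way was not computed. In whole larvae, a change in the number of cells that express a gene and a change in RNA per cell cannot be told apart.

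The mutants without TIR-1 were lower. In dpy-21; cec-4, unc-18 had 110.6, 108.7 and 110.9 FPKM, and in dpy-21 it had 97.55, 86.01 and 78.84 FPKM. In cec-4 it had 65.46, 66.43 and 59.52 FPKM with auxin, and 51.12, 50.57 and 69.65 FPKM without, and in WT it had 77.75, 56.78 and 75.93 FPKM. All 6 dpy-21 libraries (median 103.1 FPKM) were above all WT libraries. Of the 15 libraries with neither TIR-1 nor dpy-21, only replicate 3 of dpy-27::AID with auxin and replicate 3 without auxin lay above the lowest dpy-21 library. In the order of the condition means, TIR-1; dpy-27::AID; cec-4 with auxin (192.2 FPKM) overlapped with TIR-1; dpy-27::AID with auxin (174.5 FPKM), whose libraries did not overlap with the same strain untreated (149.9 FPKM). The next gap without overlap stood between dpy-21; cec-4 (110.1 FPKM) and dpy-21 (87.5 FPKM). From dpy-21 down to untreated cec-4 (57.1 FPKM), each neighbour in the order overlapped with the next.

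With TIR-1 added to dpy-27::AID on auxin, unc-18 was 174.5 ± 16.3 FPKM, against 70.3 ± 19.1 FPKM in dpy-27::AID on auxin (SD, n = 3 each). The log2 fold change was 1.34 (SE 0.24), with an adjusted p of 0.00443 by limma with Benjamini-Hochberg adjustment over 13309 genes, and all TIR-1 libraries were higher. Unc-18 was the only one of 9 tested members called, where 1.31% of all tested genes were. It kept its call with each of the 6 libraries left out in turn, at 1.22 to 1.55, and without the pair of libraries that stood apart its value was 1.55. The median of all X-linked genes was 0.46, and unc-18 lay at percentile 88.1 of them. Centred on the X-linked median and tested among the 2061 X-linked genes alone, an alternative chosen after seeing the data, unc-18 stayed higher by 0.93 (SE 0.22, adjusted p = 0.0399 by limma). Fitted to the compared conditions alone, the adjusted p was 0.0785.

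Without auxin, TIR-1; dpy-27::AID had 149.9 ± 10.99 FPKM of unc-18, against 71.9 ± 9.12 FPKM in dpy-27::AID (SD, n = 3 each), in a comparison added after its values were seen. The log2 fold change was 1.07 (SE 0.24, adjusted p = 0.0837 by limma), so unc-18 was not called, and no other member was, where 0.0376% of all genes were called and 2 members, unc-18 and ric-4, had an unadjusted p under 0.05. It was called without replicate 3 of untreated dpy-27::AID (adjusted p = 0.0183) or without replicate 1 of untreated TIR-1; dpy-27::AID (adjusted p = 0.025). No other fit with 1 of the compared libraries left out called it. Those were the highest dpy-27::AID library, at 80.66 FPKM, and the lowest TIR-1; dpy-27::AID library, at 137.5 FPKM. Leaving either out widens the difference by construction, so these calls are no support. Centred on the X-linked median, the unc-18 difference was 0.78 (adjusted p = 0.106 by limma). Against WT, the same untreated TIR-1; dpy-27::AID libraries gave 1.11 (SE 0.24, adjusted p = 0.0464 by limma), and unc-18 was the 1 member called, where 0.293% of genes were called. That call was lost without any library but WT replicate 3, with adjusted p-values of 0.132 without WT replicate 1, 0.0778 without WT replicate 2, and 0.087, 0.2 and 0.0676 without TIR-1; dpy-27::AID replicates 1, 2 and 3. Centred on the X-linked median it was 0.63 (adjusted p = 0.161 by limma).

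In the cec-4 background, untreated TIR-1; dpy-27::AID; cec-4 had 138.9, 149.0 and 54.97 FPKM of unc-18, against 51.12, 50.57 and 69.65 FPKM in untreated cec-4, so replicate 3 of the TIR-1 strain fell within the cec-4 range. This comparison too was added after the values were seen. The log2 fold change was 0.89 (SE 0.24, adjusted p = 0.529 by limma), no member was called (0.0376% of genes were), and only unc-18 had an unadjusted p under 0.05. In the 31 libraries the value was 1.35. Against WT, at 77.75, 56.78 and 75.93 FPKM, the log2 fold change was 0.59 (adjusted p = 0.19 by limma) in all libraries, with no member called where 1.73% of genes were. In the 31 libraries the value was 1.05. Centred on the X-linked median in all 33 libraries, unc-18 differed by 0.80 from untreated cec-4 (adjusted p = 0.305 by limma) and by 0.27 from WT (adjusted p = 0.499), and in the 31 libraries the values were 1.21 and 0.67.

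**Figure D2:**
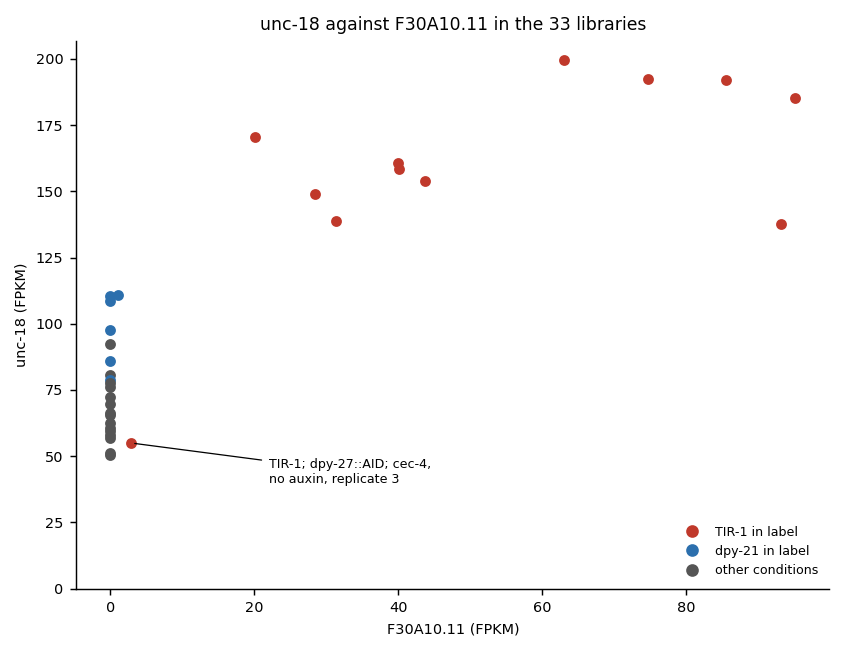
FPKM of unc-18 (vertical axis) against FPKM of F30A10.11 (horizontal axis), 1 point per library, coloured by TIR-1, dpy-21 or other conditions. Replicate 3 of untreated TIR-1; dpy-27::AID; cec-4, with 2.87 FPKM of F30A10.11 and 54.97 FPKM of unc-18, lies beside the libraries without TIR-1, and the other 11 TIR-1 libraries lie apart from them on both axes.

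By p in all 33 libraries, unc-18 ranked 12 among the 2061 X-linked genes in TIR-1; dpy-27::AID against dpy-27::AID on auxin, and 7 in the same comparison without auxin. It ranked 12 in untreated TIR-1; dpy-27::AID against WT, 8 in untreated TIR-1; dpy-27::AID; cec-4 against cec-4 and 321 in that strain against WT. These comparisons share libraries and are not independent. Of the 10 tested genes nearest to unc-18 on the X, only dhs-29 was called in the comparison with dpy-27::AID on auxin (1.06, adjusted p = 0.00779 by limma). There clik-2 was 0.83 in all libraries and 1.47 in the 31, a value and no test, since the library left out was known for its high X:A score. None of the 10 was called in the comparisons of untreated TIR-1; dpy-27::AID with dpy-27::AID and of untreated TIR-1; dpy-27::AID; cec-4 with cec-4.

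Auxin treatment of TIR-1; dpy-27::AID, which depletes DPY-27, left unc-18 at 192.4, 170.4 and 160.6 FPKM, against 137.5, 153.8 and 158.4 FPKM in the untreated strain. All treated libraries were higher, but the log2 fold change was 0.22 (95% interval -0.28 to 0.72, adjusted p = 0.808 by limma), below the X-linked median of 0.34. None of the members was called, where 0.413% of genes were, and 1 member, ric-4, had an unadjusted p under 0.05. Unc-64, at 24.5, 24.9 and 28.4 FPKM with auxin, was lower in every treated library than in the untreated ones, at 29.5, 32.8 and 31.2 FPKM, with a log2 fold change of -0.27 (adjusted p = 0.697 by limma).

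In TIR-1; dpy-27::AID; cec-4, unc-18 was called higher with auxin, and that call rested on the library that went against its label. The log2 fold change was 0.88 (SE 0.24, adjusted p = 0.0303 by limma), where 6.4% of all genes and 15.5% of X-linked genes were called and the X-linked median was 0.67. Without replicate 3 of the untreated strain it was 0.42 (adjusted p = 0.219), and in the 31 libraries the value was 0.42. The call was also lost without auxin replicate 1 (0.88, adjusted p = 0.0697), 2 (0.85, adjusted p = 0.0864) or 3 (0.91, adjusted p = 0.0634), and in a fit to the compared conditions alone (adjusted p = 0.251). No other member was called. The difference between the responses to auxin with and without cec-4 was 0.66 for unc-18 (95% interval -0.05 to 1.37, adjusted p = 0.357 by limma) and 0.20 in the 31 libraries. For that difference 1.44% of genes were called, no member was, and none had an unadjusted p under 0.05.

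The tissue markers moved in the cec-4 pair of conditions too. The summed level of 10 pan-neuronal genes was 691.8 to 860.4 FPKM with auxin, against 491.9 to 658.2 FPKM without. Of the 9 tested pan-neuronal genes, 1, the X-linked synaptogyrin gene sng-1, was called higher, and unc-31 was listed at 0 in 22 of the 33 libraries. The summed level of 10 hypodermal and molting genes was 967.1 to 2655 FPKM with auxin, against 5443 to 6484 FPKM without, and 3 of 8 tested were called lower. The pharyngeal sum of 6 genes was 628.2 to 928.1 FPKM with auxin, against 461.9 to 544.9 FPKM without. The intestinal sum of 8 genes was 6049 to 6729 FPKM with auxin, against 7139 to 9195 FPKM without, with 2 X-linked genes called higher and 1 autosomal gene lower, and the germline sum of 8 genes was 92.8 to 148.2 FPKM with auxin, against 179.8 to 239.5 FPKM without. Their part in the unc-18 difference was not tested. In the comparison of TIR-1; dpy-27::AID with dpy-27::AID on auxin, the pan-neuronal sums overlapped, at 651 to 676.4 FPKM against 593.6 to 762.5 FPKM, and the hypodermal sums did not, at 2309 to 5060 FPKM against 5767 to 8814 FPKM. In untreated TIR-1; dpy-27::AID against WT, the pan-neuronal sums were 579.8 to 827.3 FPKM against 786.4 to 1365 FPKM, and in untreated TIR-1; dpy-27::AID; cec-4 against cec-4 they were 491.9 to 658.2 FPKM against 638 to 892.6 FPKM, so both pairs of ranges overlapped. In untreated TIR-1; dpy-27::AID; cec-4 the pharyngeal sum, at 461.9 to 544.9 FPKM, was below the 708.3 to 791 FPKM of untreated cec-4, and the germline sum, at 179.8 to 239.5 FPKM, was above its 90.96 to 162.1 FPKM. Their part in the unc-18 values was not tested.

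Auxin alone left unc-18 within the spread of the libraries. In dpy-27::AID the log2 fold change was -0.06 (95% interval -0.56 to 0.44), and -0.27 in the 31 libraries, and in cec-4 it was 0.17 (95% interval -0.33 to 0.67), both with an adjusted p of 1 by limma. Neither comparison had a called member, where 0% of genes were called in dpy-27::AID and 0.00751% in cec-4. An unadjusted p under 0.05 was found for cha-1 in dpy-27::AID and for no member in cec-4. In dpy-27::AID against WT, with neither TIR-1 nor auxin, unc-18 differed by 0.04 (95% interval -0.46 to 0.54, adjusted p = 0.961 by limma). No member was called there, where 0.586% of genes were, and 2 members, ric-4 and snb-1, had an unadjusted p under 0.05.

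The absence of cec-4 from depleted worms was read on auxin. Unc-18 in TIR-1; dpy-27::AID; cec-4 differed from that in TIR-1; dpy-27::AID by 0.14 (95% interval -0.36 to 0.64, adjusted p = 0.83 by limma), and the libraries overlapped. Among the members none was called, where 2.28% of genes were, and 2, unc-10 and ric-4, had an unadjusted p under 0.05.

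Without dpy-21, unc-18 rose in the cec-4 background. Dpy-21; cec-4 had 110.6, 108.7 and 110.9 FPKM, against 51.12, 50.57 and 69.65 FPKM in untreated cec-4, with no overlap. The log2 fold change was 0.96 (SE 0.24, adjusted p = 0.0403 by limma), where 1.56% of all genes and 7.18% of X-linked genes were called and the X-linked median was 0.61. Unc-18 was the 1 member called, and centred on the X-linked median its change was 0.38 (adjusted p = 0.563). The call was lost without cec-4 replicate 1 (adjusted p = 0.164) or 2 (0.117), or dpy-21; cec-4 replicate 1 (0.113), 2 (0.112) or 3 (0.126). The hypodermal and molting sum was 2495 to 3184 FPKM in dpy-21; cec-4, against 3688 to 5715 FPKM in cec-4, and the pan-neuronal sums, at 764.3 to 817.1 FPKM against 638 to 892.6 FPKM, overlapped. Their part was not tested.

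Against WT, dpy-21; cec-4 had a log2 fold change of 0.66 for unc-18 (95% interval 0.16 to 1.16, adjusted p = 0.119 by limma). No member was called in all libraries, where 4.3% of genes were, and unc-18 alone had an unadjusted p under 0.05. Dpy-21 against WT gave 0.33 (95% interval -0.17 to 0.83, adjusted p = 0.487 by limma), below the X-linked median of 0.66. No member was called there either, where 3.66% of all genes and 9.56% of X-linked genes were, and 1 member, snb-1, had an unadjusted p under 0.05. Between dpy-21; cec-4 and dpy-21, all 3 dpy-21; cec-4 libraries were higher in unc-18, by 0.34 (adjusted p = 1 by limma). No member was called where 0% of genes were, and unc-10 alone had an unadjusted p under 0.05. Cec-4 against WT gave -0.30 for unc-18 (95% interval -0.80 to 0.20, adjusted p = 0.581 by limma), with no member called where 0.195% of genes were and 1, snb-1, at an unadjusted p under 0.05.

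**Figure D3:**
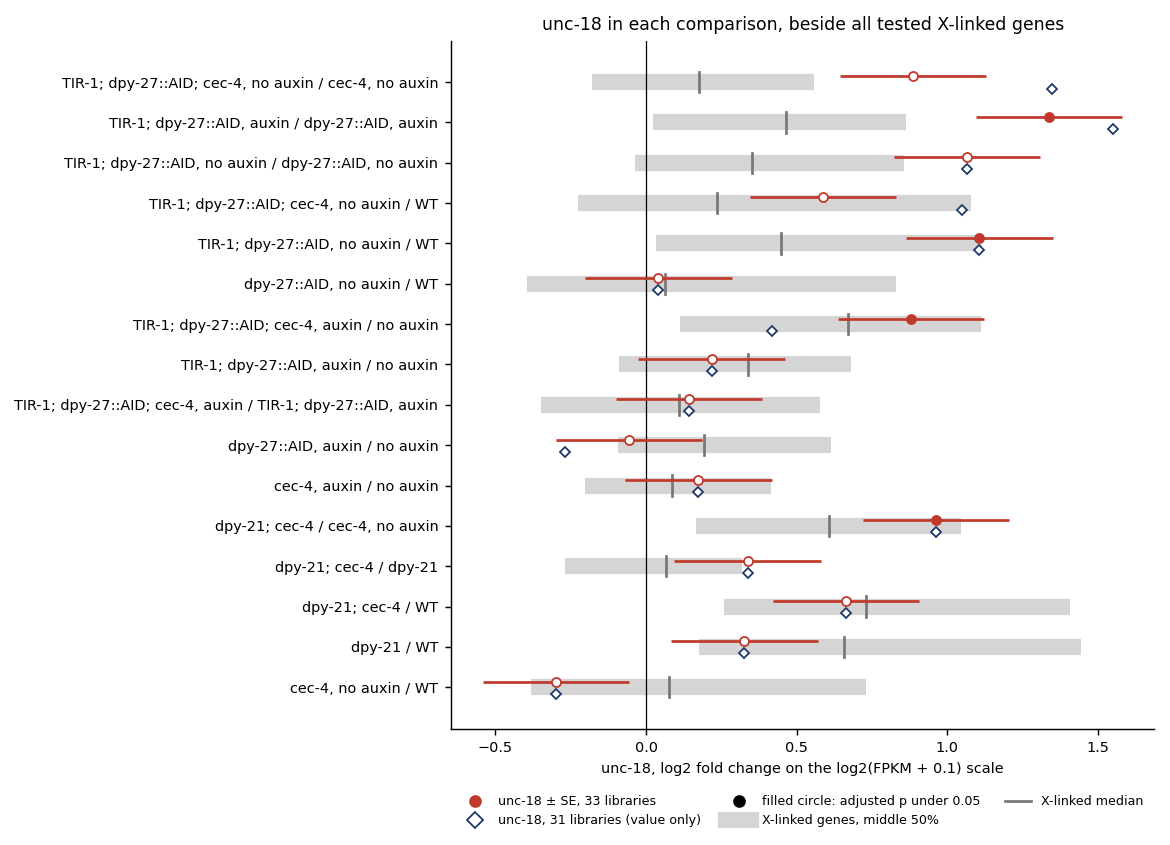
Log2 fold change of unc-18 with its SE (horizontal axis, log2(FPKM + 0.1) scale) in 16 comparisons, in all 33 libraries (circles) and in the 31 without the pair that stood apart (open diamonds, value only), circles filled where the adjusted p was under 0.05; grey bars hold the middle 50% of X-linked genes with their median. In the 5 upper comparisons, of TIR-1 strains with strains without TIR-1, unc-18 lies right of the X-linked median, and the auxin response of TIR-1; dpy-27::AID; cec-4 is 0.88 in all libraries and 0.42 in the 31.

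Unc-10, the other X-linked member, was low and varied widely between replicates. It was highest in auxin-treated TIR-1; dpy-27::AID; cec-4, at 4.60, 18.2 and 7.19 FPKM, against 1.84, 2.56 and 2.42 FPKM without auxin. The libraries did not overlap, but the log2 fold change of 1.87 had an SE of 1.41 and an adjusted p of 0.493 by limma. In auxin-treated TIR-1; dpy-27::AID it was 1.97, 0 and 3.07 FPKM, and 1.52, 1.17 and 1.83 FPKM without auxin. These libraries overlapped with those of dpy-27::AID, at 0.795, 0.547 and 3.59 FPKM with auxin and 0, 1.07 and 2.75 FPKM without.

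In dpy-21; cec-4, unc-10 had 3.13, 8.23 and 4.29 FPKM, above all libraries of dpy-21, at 2.20, 0.154 and 0 FPKM, and of WT, at 0.0969, 1.695 and 1.299 FPKM. The adjusted p was 1 against dpy-21 (unadjusted p = 0.0157) and 0.3 against WT by limma. Cec-4 had 1.495, 2.98 and 2.10 FPKM with auxin and 6.09, 0 and 1.13 FPKM without. Auxin-treated TIR-1; dpy-27::AID; cec-4 was also above auxin-treated TIR-1; dpy-27::AID, 1 library of which was listed at 0 (adjusted p = 0.236 by limma, unadjusted p = 0.0278). Unc-10 was called in none of the 17 comparisons by limma.

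Among the autosomal members, none of 119 tests (7 tested genes in 17 comparisons) was called by limma, in all libraries or in the 31. The syntaxin gene unc-64 kept within 18.9 to 36.8 FPKM in all libraries, and so the ratio of unc-18 to unc-64, whose proteins bind each other, followed unc-18. That ratio was 5.83 to 7.40 in auxin-treated TIR-1; dpy-27::AID; cec-4 and 5.66 to 7.86 in auxin-treated TIR-1; dpy-27::AID. It was 5.57, 5.61 and 2.41 in untreated TIR-1; dpy-27::AID; cec-4 and 4.65 to 5.08 in untreated TIR-1; dpy-27::AID. It was 3.80 to 4.51 in dpy-21; cec-4, 3.65 to 4.18 in dpy-21 and 2.06 to 3.61 in WT.

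Ric-4, whose product SNAP-25 is the other SNARE of the plasma membrane, had the widest spread of the SNARE genes between conditions, at 31.04 to 78.6 FPKM. In untreated TIR-1; dpy-27::AID it was 76.4, 66.3 and 49.3 FPKM, against 31.04, 42.6 and 44.3 FPKM in untreated dpy-27::AID, which did not overlap (log2 fold change 0.70, SE 0.23, adjusted p = 0.167 by limma). Against WT, at 50.6, 76.3 and 56.9 FPKM, dpy-27::AID was lower in every library, by a log2 fold change of -0.63 (adjusted p = 0.137 by limma). With auxin, TIR-1; dpy-27::AID had 38.3, 43.7 and 53.5 FPKM, which overlapped with the untreated libraries (-0.49, adjusted p = 0.412), and TIR-1; dpy-27::AID; cec-4 had 61.7, 66.1 and 60.7 FPKM (0.49 against TIR-1; dpy-27::AID on auxin, adjusted p = 0.304). None of these differences passed the test.

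Snb-1, whose product synaptobrevin is the SNARE of the vesicle, had the narrowest spread. It lay between 349.4 and 469.7 FPKM in all libraries but WT replicate 1, which had 641 FPKM beside 424 and 453 FPKM in the other WT libraries. Relative to WT its log2 fold change was -0.36 in dpy-27::AID (adjusted p = 0.124), -0.36 in TIR-1; dpy-27::AID (adjusted p = 0.189), -0.30 in cec-4 (adjusted p = 0.244) and -0.27 in dpy-21 (adjusted p = 0.246), all by limma and uncalled. With libraries scaled to equal FPKM sums these differences lay between 0.01 and 0.05. Without WT replicate 3, the dpy-27::AID difference was called, at -0.43 (adjusted p = 0.0469 by limma). That fit keeps WT replicate 1, at 641 FPKM, and drops a lower library. The difference widens by construction, so the call is no support.

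**Figure D4:**
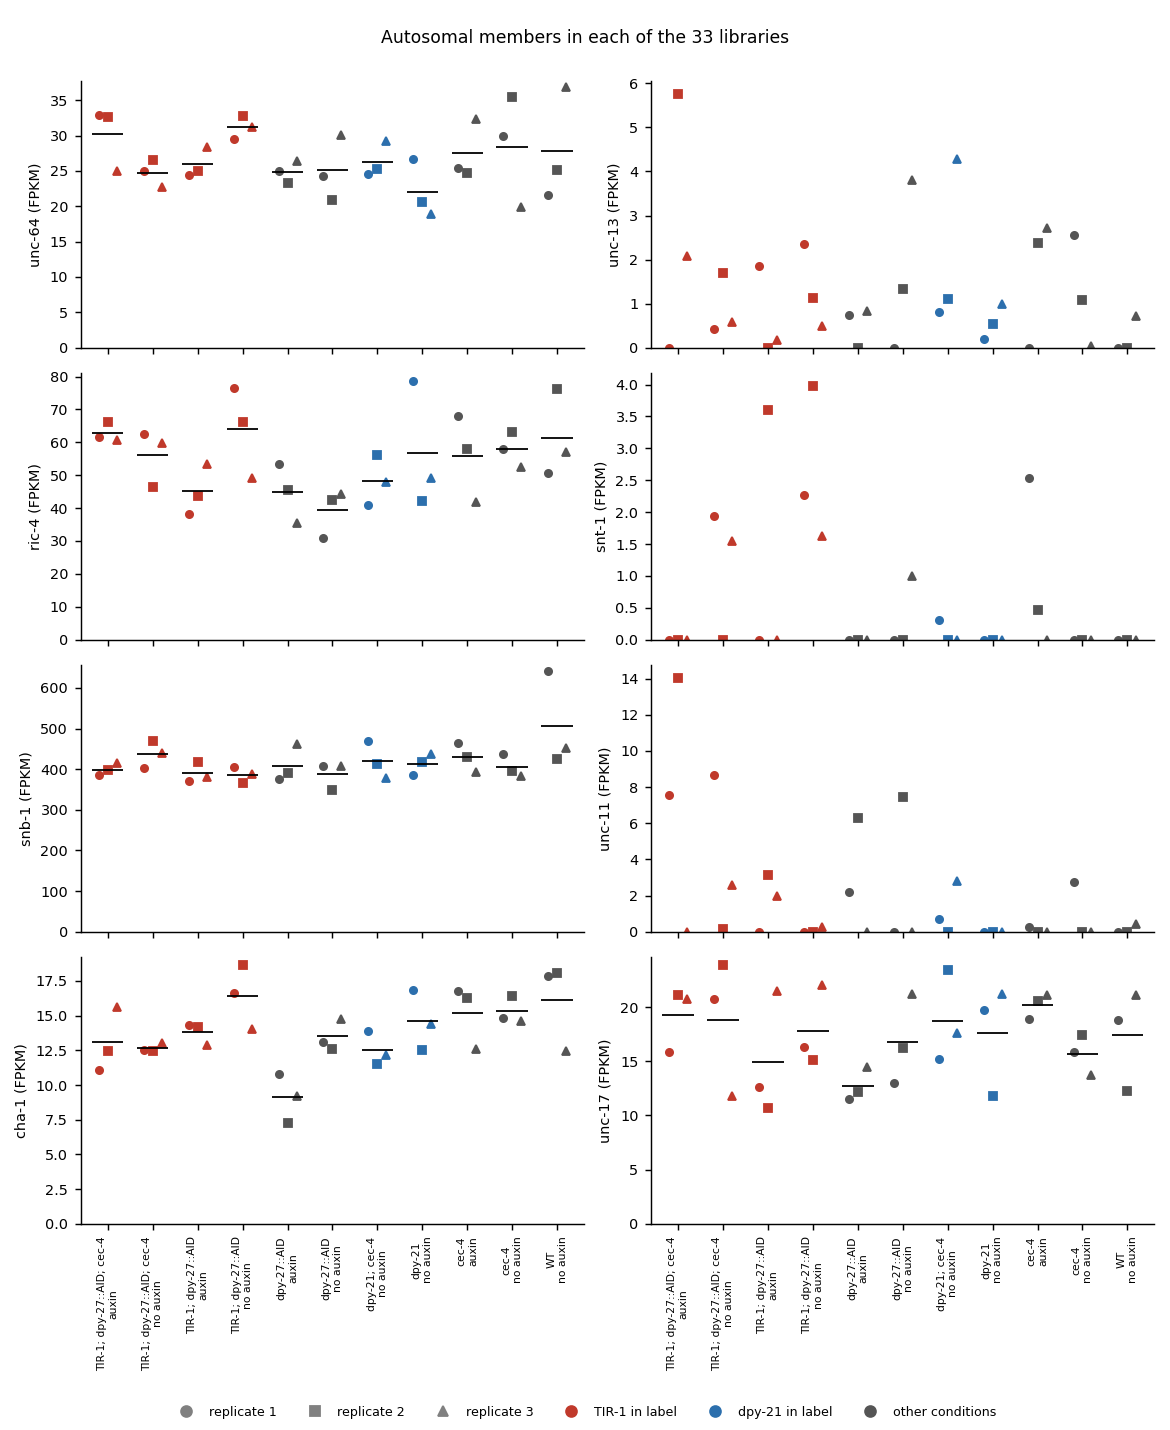
FPKM of the 8 autosomal members in each of the 33 libraries, by condition; marker shapes are replicates, colours mark TIR-1, dpy-21 and other conditions, and black lines are means of 3 libraries for the members with no value of 0. Libraries of different conditions overlap in most panels, snb-1 has its highest value, 641 FPKM, in WT replicate 1, and snt-1 is listed at 0 in 23 libraries.

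The acetylcholine pair, cha-1 and unc-17, share a start region, and reads of that region can be split between them, so their ratio is uncertain. Cha-1 encodes choline acetyltransferase and unc-17 the vesicular acetylcholine transporter. In auxin-treated TIR-1; dpy-27::AID, cha-1 had 14.3, 14.2 and 12.9 FPKM, against 10.8, 7.24 and 9.24 FPKM in auxin-treated dpy-27::AID, with no overlap (log2 fold change 0.61, SE 0.21, adjusted p = 0.157 by limma). The same auxin-treated dpy-27::AID libraries were below the untreated ones, at 13.1, 12.6 and 14.8 FPKM (-0.58, adjusted p = 0.942 by limma). Unc-17 ranged over 10.7 to 23.9 FPKM, and none of its 17 tests had an unadjusted p under 0.05. Over the 33 libraries cha-1 and unc-17 correlated at 0.166 (Pearson r, a description over libraries that share conditions), below ric-4 and cha-1 at 0.460.

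Unc-13, snt-1 and unc-11 were too low to read between conditions. Unc-13, needed for priming, had at most 5.76 FPKM, in auxin-treated TIR-1; dpy-27::AID; cec-4 replicate 2, which also had the highest unc-10 (18.2 FPKM) and unc-11 (14.03 FPKM) of all libraries. The annotation gives 6 transcripts to unc-10, 11 to unc-13 and 7 to unc-11. Snt-1 was above 0 in all 3 libraries of only untreated TIR-1; dpy-27::AID, at 2.28, 3.98 and 1.63 FPKM, and was listed at 0 in all 3 libraries of WT, untreated cec-4, dpy-21, auxin-treated dpy-27::AID and auxin-treated TIR-1; dpy-27::AID; cec-4. Unc-11 was listed at 0 in all 3 libraries of dpy-21 and in at least 1 library of all conditions except untreated TIR-1; dpy-27::AID; cec-4.

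Over all 17 comparisons and 9 tested members, 153 tests gave 4 calls, all of unc-18 and all higher, and 20 had an unadjusted p under 0.05. The share of all genes under that p was not computed, here or in the single comparisons, so the 20 cannot be read as an excess. In dpy-21; cec-4 against WT, for example, unc-18 had an unadjusted p of 0.0114 by limma and ranked 1273 of 13309 genes by p. The median log2 fold change of the 7 tested autosomal members was -0.27 in auxin-treated against untreated TIR-1; dpy-27::AID, beside -0.10 over all autosomal genes. In TIR-1; dpy-27::AID; cec-4 it was 0.17, beside -0.13, and on auxin with TIR-1 against dpy-27::AID it was 0.02, beside -0.07. In dpy-21 against WT it was -0.14, beside 0.00, and in dpy-21; cec-4 against WT -0.05, beside -0.03.

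The wider pathway was described with 128 further genes of release, vesicle recycling and acidification, acetylcholine metabolism, receptors and other transmitters, of which 25 are X-linked (23 tested) and 103 autosomal (94 tested). In auxin-treated against untreated TIR-1; dpy-27::AID; cec-4, all 23 tested X-linked genes were above 0 with a median of 0.84, beside 0.67 over all X-linked genes. Most of the chromosome was above 0 too, with a lower quartile of 0.11 over all X-linked genes. These values include replicate 3 of the untreated strain, which went against its label. In the 31 libraries the median over all X-linked genes was 0.60, and that of the pathway genes was not computed. Some of them were small there, such as apa-2 (0.29), vha-15 (0.23) and aps-2 (0.16). Of the X-linked pathway genes 3 of 23 were called higher, where 14.8% of all X-linked genes were, so their count was near that of the chromosome. Sng-1, the synaptogyrin gene, had 102.8, 91.8 and 80.1 FPKM with auxin, against 22.3, 31.2 and 31.8 FPKM without (1.69, SE 0.26, adjusted p = 0.000607 by limma). Acr-2, a nicotinic receptor subunit gene, had 10.05, 11.1 and 17.4 FPKM with auxin, against 2.26, 3.46 and 4.17 FPKM without (1.93, adjusted p = 0.00249). Unc-3, which encodes the transcription factor that specifies cholinergic motor neurons, had 12, 24.0 and 28.9 FPKM with auxin, against 6.48, 7.35 and 4.40 FPKM without (1.75, adjusted p = 0.00598). These groups did not overlap, and unlike unc-18 all 3 genes kept their calls in the 31 libraries and with each library left out in turn. Of the 94 autosomal genes, 49 were above 0 with a median of 0.03, and 1, the pharyngeal nicotinic subunit gene eat-2, was called higher (2.20, adjusted p = 0.034), which was lost in the 31 libraries (adjusted p = 0.0813).

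In TIR-1; dpy-27::AID, the X-linked pathway genes had a median of 0.43 with auxin against without, and 19 of 23 were above 0. Over all X-linked genes the median was 0.34 and the lower quartile -0.09. None of the X-linked pathway genes was called by limma. The AP2 subunit gene apa-2 was 0.61, with an adjusted p under 0.05 only in the 31 libraries (0.0267 by limma). Neither library left out belongs to this comparison, so that call came with a smaller shared spread and is no support. The autosomal median was -0.11, and exp-1, which encodes an excitatory GABA receptor, was called lower. It had 1.02, 0 and 1.895 FPKM with auxin, against 5.66, 4.81 and 4.17 FPKM without, and kept its call in 1 of 6 fits with a library left out (adjusted p up to 0.186). The same 3 auxin-treated libraries gave its calls against auxin-treated dpy-27::AID and TIR-1; dpy-27::AID; cec-4, each kept in 4 of 6 fits. On auxin, TIR-1; dpy-27::AID against dpy-27::AID had an X-linked pathway median of 0.56, with 19 of 23 above 0 and none called. Over all X-linked genes the median was 0.46 and the lower quartile 0.02. In the 31 libraries apa-2 was 0.73 and sng-1 1.26 there, and the median over all X-linked genes was 0.69. The library left out of that comparison was known for its high X:A score and was the highest auxin-treated dpy-27::AID library for both genes. These are therefore values and no test.

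In dpy-21 against WT, 6 of the 23 X-linked pathway genes were called higher and none lower, with a median of 0.93 beside 0.66 over all X-linked genes, of which 9.32% were called higher. Of the tissue markers, the pan-neuronal sum was 564.1 to 714.4 FPKM in dpy-21, against 786.4 to 1365 FPKM in WT, the intestinal sum 6103 to 7205 FPKM, against 7828 to 10150 FPKM, and the hypodermal and molting sum 3469 to 5562 FPKM, against 1314 to 3210 FPKM. None of these ranges overlapped, and their part in the pathway genes' values was not tested. The pan-neuronal sum is not a general neuronal measure, because egl-21, egl-3 and ida-1 make up most of it, averaging 267.4, 197.5 and 131.3 FPKM. Of its genes only egl-21 was called (-1.09, adjusted p = 0.00875 by limma), and sng-1 was 0.53 in the 31 libraries. The sums were not rescaled, although WT replicates 1 and 2 had the highest FPKM sums. Syd-2, the liprin-alpha gene of the active zone, had 40.5, 39.5 and 44.9 FPKM in dpy-21, against 10.5, 8.18 and 27.3 FPKM in WT (1.64, adjusted p = 0.00373 by limma). Ace-1, which encodes an acetylcholinesterase, had 26.6, 21.5 and 22.4 FPKM in dpy-21, against 5.80, 10.5 and 13.5 FPKM in WT (1.31, adjusted p = 0.0161). The other 4 were acr-2 (1.56), the GABA-B receptor gene gbb-1 (1.38), and the AP2 subunit genes aps-2 (0.89) and apa-2 (0.73). Strains with dpy-21 intact also differed from WT in some of the 6 called genes, by values of the 31 libraries. In untreated cec-4, syd-2 was 1.01, acr-2 0.69, ace-1 0.66, gbb-1 0.32, apa-2 0.06 and aps-2 0.04. In untreated dpy-27::AID they were 0.96, 1.67, 0.38, 0.80, 0.19 and -0.10 in the same order. How much of the rise belongs to dpy-21 was not tested. In dpy-21; cec-4 against WT, 7 were called higher, with a median of 0.91 beside 0.73 over all X-linked genes, of which 12.4% were called higher. The intestinal sum was 6575 to 7263 FPKM in dpy-21; cec-4, below WT, and the pan-neuronal sums overlapped. The 7 genes were acr-12 (2.37), acr-2 (2.17), ace-1 (1.66), gbb-1 (1.64), syd-2 (1.58), lev-8 (1.53) and apa-2 (0.86), of which acr-12 and lev-8 encode nicotinic receptor subunits. With a library left out in turn, syd-2 kept both calls in all 6 fits, and acr-2, ace-1 and apa-2 kept theirs in dpy-21; cec-4. There acr-12 and gbb-1 each kept theirs in 3 of 6 fits (adjusted p up to 0.0574 and 0.0788 by limma), and lev-8 kept none (adjusted p up to 0.134). The dpy-21 calls of ace-1, acr-2, gbb-1 and apa-2 were kept in 3, 3, 2 and 2 of 6 fits. No autosomal pathway gene was called in dpy-21 against WT, and in dpy-21; cec-4 the autosomal calls were acr-14, higher, and klc-2, lower, both resting on groups with a value of 0 and each kept in 2 of 6 fits.

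In dpy-21; cec-4 against cec-4, 21 of the 23 X-linked pathway genes were above 0, with a median of 0.80. Over all X-linked genes the median was 0.61 and the lower quartile 0.17, and 7.13% were called higher. The X-linked pathway genes called higher were apa-2 (0.80, adjusted p = 0.0155 by limma), the V-ATPase subunit gene vha-15 (1.10, adjusted p = 0.0178) and acr-2 (1.48, adjusted p = 0.035). With a library left out in turn they kept 2, 1 and 0 of 6 calls. In dpy-27::AID against WT, acr-2 was the 1 X-linked pathway gene called (1.67, adjusted p = 0.0291 by limma, up to 0.171 with a library left out).

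**Figure D5:**
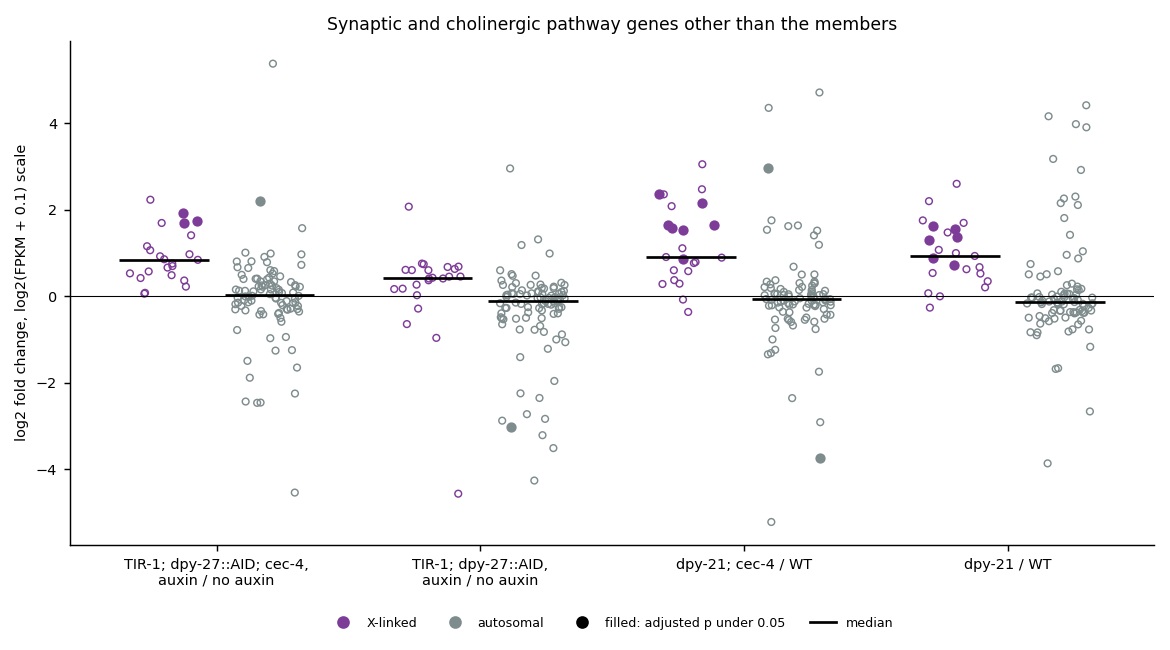
Log2 fold change (vertical axis, log2(FPKM + 0.1) scale) of the X-linked and autosomal pathway genes other than the members in 4 comparisons, 1 point per tested gene, filled where the adjusted p was under 0.05, with black lines for medians. The X-linked median lies above the autosomal one in all 4 comparisons, at 0.84 against 0.03 in TIR-1; dpy-27::AID; cec-4, 0.43 against -0.11 in TIR-1; dpy-27::AID, 0.91 against -0.07 in dpy-21; cec-4 and 0.93 against -0.12 in dpy-21. Values are of all 33 libraries, with the library that went against its label included.

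Genes whose pattern over the 33 libraries was most like that of unc-18 were sought among 9876 genes averaging 5 FPKM or more, by Pearson correlation, as a description over libraries that share strains and conditions. They were F30A10.11 (0.858), adt-2 (0.853), dlg-1 (0.842), F30A10.14 (0.836) and F47G3.1 (0.832), and 90 of the top 100 were X-linked. For unc-10 they were glb-25 (0.718), zfh-2 (0.695), tsp-6 (0.671), mapk-15 (0.663) and F46G10.1 (0.653), with 28 of the top 100 X-linked. For the mean of the tested autosomal members they were lin-28 (0.765), Y66D12A.24 (0.757), cal-2 (0.708), T27A10.2 (0.707) and F10E7.9 (0.705), with 9 of the top 100 X-linked. Unc-18 and unc-10 correlated at 0.341 with each other.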

How the data were processed

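Messenger RNA of whole L3 larvae was sequenced as poly(A) libraries in 33 samples, grouped by their labels. The authors deposited FPKM values for 21975 genes, and how they computed and scaled FPKM is not given in the sources used here. The submitters' processing notes name cutadapt 2.3, FastQC 0.11.8, Salmon 1.9.0, DESeq2 1.42.0 and WBcel235. Counts were not analysed here. Gene symbols were matched to an Ensembl annotation of WBcel235. Tests were run with limma 3.58.1 in R 4.3.3 and figures drawn with matplotlib 3.10.9 in Python 3.11.15. On the log2(FPKM + 0.1) scale, 13309 genes averaging 1 FPKM or more were tested in 1 fit of 11 condition means to all 33 libraries, with a trended prior variance and no replicate block. Two-sided p-values were adjusted over all tested genes of each of 17 comparisons (Benjamini-Hochberg), with a threshold of 0.05. The procedure was tested on simulated data.

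The members and gene lists were chosen with earlier results of these data known. All members are reported, with values of every library for the X-linked ones and for called members, together with pathway genes past the threshold (at most 15 per comparison) and the 5 genes most correlated with each pattern. The 2 comparisons of untreated TIR-1 strains with their counterparts without TIR-1, the fit to 31 libraries, the X-centred fit, and the F30A10 genes were added after values, those of unc-18 included, were seen. As alternatives, pseudocounts of 0.01 and 1, a filter at 5 FPKM or none, equal FPKM sums, median-of-ratios scaling, the replicate block, the compared conditions alone, array weights and leaving out libraries were tried.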

Additional observations from a re-analysis of the deposited data

How the results depend on the processing

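The 1 member called for auxin in TIR-1; dpy-27::AID; cec-4 became 0 with only the conditions compared and with the 31 libraries, and was 0 to 1 with a library left out. The 1 member called for TIR-1; dpy-27::AID against dpy-27::AID on auxin became 0 with only the conditions compared, where fewer samples set the spread. For dpy-21; cec-4 against cec-4 it became 0 with no filter, equal FPKM sums and only the conditions compared (0 to 1 with a library left out), and for untreated TIR-1; dpy-27::AID against WT 0 with a pseudocount of 1, no filter, only the conditions compared and without WT replicates 1 and 2 (0 to 1 with a library left out). Counts of 0 became 1 for dpy-21; cec-4 against WT and for untreated TIR-1; dpy-27::AID; cec-4 against WT with equal FPKM sums, array weights and the 31 libraries, for untreated TIR-1; dpy-27::AID against dpy-27::AID with array weights and the 31 libraries, for untreated TIR-1; dpy-27::AID; cec-4 against cec-4 with the 31 libraries, and for dpy-27::AID against WT with array weights, through ric-4 (-0.82, adjusted p = 0.0472 by limma). The counts of the 31 libraries, and of fits without replicate 3 of untreated TIR-1; dpy-27::AID; cec-4, leave out a library known to be low in unc-18, so they are no support. With a library left out the last 4 of these were 0 to 1. The cause was not tested.

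With the replicate block, the members called became 0 for dpy-21; cec-4 against cec-4 (unc-18 adjusted p = 0.0583) and for untreated TIR-1; dpy-27::AID against WT (0.0607), and no other member call changed. The numbers were not taken as pairs, since in no comparison did all 3 same-numbered pairs of libraries correlate above 0.1 in their deviations (r of -0.101 to 0.165 over genes). Each library did correlate best with that of its own number, weakly, in TIR-1; dpy-27::AID; cec-4 against TIR-1; dpy-27::AID on auxin (0.0102 to 0.0385). The same held in dpy-21; cec-4 against dpy-21 (0.0222 to 0.0299).

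Equal FPKM sums moved the median of all genes by 0.31 to 0.37 in comparisons with WT, through WT replicates 1 and 2, and turned snb-1 to 0.0501 in cec-4, 0.0533 in dpy-21, 0.0112 in dpy-27::AID and 0.0143 in TIR-1; dpy-27::AID, and unc-18 to 0.0499 in cec-4. Centring on the X-linked median turned unc-18 to -0.15 for auxin in TIR-1; dpy-27::AID, -0.41 for dpy-21 against WT, -0.15 for dpy-21; cec-4 against WT and -0.15 for dpy-27::AID against WT. The last was -0.0875 without WT replicates 1 and 2 and -0.10 to 0.14 with a library left out, and auxin in dpy-27::AID gave -0.27 to 0.0651 with a library left out. The number of genes called, with the value reported in parentheses, ranged over the settings from 5 to 815 for auxin in TIR-1; dpy-27::AID (55), 359 to 1942 in TIR-1; dpy-27::AID; cec-4 (852), 57 to 1539 for TIR-1; dpy-27::AID against dpy-27::AID on auxin (174), and 70 to 771 for cec-4 in depleted worms on auxin (304). It was 0 to 1337 for cec-4 (26), 50 to 1725 for dpy-21 (487), 66 to 1735 for dpy-21; cec-4 (572), 0 to 1450 for dpy-27::AID (78), 5 to 946 for TIR-1; dpy-27::AID (39) and 39 to 1708 for TIR-1; dpy-27::AID; cec-4 (230) against WT. It was 52 to 309 for dpy-21; cec-4 against cec-4 (208), 2 to 1631 for untreated TIR-1; dpy-27::AID against dpy-27::AID (5), 2 to 8 for untreated TIR-1; dpy-27::AID; cec-4 against cec-4 (5) and 63 to 1129 for the difference in auxin response (191). Low levels and values of 0 limit unc-10, unc-13, unc-11 and snt-1.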
